A study of Mus musculus with 16 samples.

Results

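The regions described here are PGC-1α eCLIP clusters whose midpoint lay in the coding sequence of a spliced gene. Each gene was represented by its GENCODE M21 protein-coding transcript with the longest coding sequence (mm10), provided that this had several exons, and a cluster had to match its strand. This gave 214384 of the 1331383 clusters in the 8 immunoprecipitated (IP) libraries, in 8537 of 20306 annotated spliced genes. Of these clusters 1885 fell in the coding sequence of several genes and were given to 1 of them. The cells were primary hepatocytes of C57BL/6J mice, kept in starvation medium overnight and crosslinked at 254 nm with 400 mJ/cm2. The glucagon libraries came from cells labelled as treated with glucagon, which the protocol gives as 200 nM for 3 h, and the control libraries from cells labelled untreated. Each treatment had 2 IP libraries of an upper band and 2 of a lower band, and 8 inputs are listed, whose reads were not analysed here. Nothing in the labels ties a replicate number to a culture or an animal, so the p-values measure only the spread between libraries, which may be technical.

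PGC-1α is a coactivator of nuclear receptors that rises in liver during fasting and has an RNA recognition motif and a serine-arginine-rich stretch near its C-terminus. In eCLIP, ultraviolet light joins RNA to protein, and the fold over a size-matched input shows where a region was recovered more often than its general abundance would give. The fold over input and the p-value of each cluster are the authors' own values, used here to describe, rank or filter clusters. A cluster was called above input when its −log10 p was at least 3 and its log2 fold at least 1, and strongly enriched when the log2 fold was at least 3.

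The sequences below are from coding sites that were each strongly enriched in at least 2 libraries. Apart from Celsr3, they cover positions that recur, which are the first coding exon, the long repeat exons of Plin4 and the last exon of Rbm14. The Celsr3 site lay in coding exon 2 of 36 and had clusters in only 2 libraries, both of glucagon replicate 1. They are the part of the site inside coding sequence, from GENCODE M21 transcripts on mm10, written 5′ to 3′ in the sense of the gene. Capitals mark the bases covered by strongly enriched clusters of the largest number of libraries.
Plin4, chr17:56106487-56106723, minus strand: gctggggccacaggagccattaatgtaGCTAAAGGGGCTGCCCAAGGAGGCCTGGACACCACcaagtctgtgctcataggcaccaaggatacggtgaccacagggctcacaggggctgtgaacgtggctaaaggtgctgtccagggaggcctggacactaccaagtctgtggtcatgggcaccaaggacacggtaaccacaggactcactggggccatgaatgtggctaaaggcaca
Plin4, chr17:56104859-56105004, minus strand: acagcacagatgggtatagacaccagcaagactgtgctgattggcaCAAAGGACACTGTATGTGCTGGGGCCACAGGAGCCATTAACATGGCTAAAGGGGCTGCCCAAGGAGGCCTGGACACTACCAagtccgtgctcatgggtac
Rbm14, chr19:4801601-4801805, minus strand: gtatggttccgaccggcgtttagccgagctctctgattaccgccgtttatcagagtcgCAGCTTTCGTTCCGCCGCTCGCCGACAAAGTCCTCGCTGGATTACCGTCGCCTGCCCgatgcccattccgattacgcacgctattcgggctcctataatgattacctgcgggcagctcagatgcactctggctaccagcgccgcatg
Jmjd1c, chr10:67127269-67127420, plus strand: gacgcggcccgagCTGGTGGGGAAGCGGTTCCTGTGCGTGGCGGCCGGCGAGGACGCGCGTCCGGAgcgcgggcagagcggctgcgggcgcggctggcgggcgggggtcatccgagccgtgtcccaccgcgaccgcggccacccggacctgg
Ankrd40, chr11:94328254-94328387, plus strand: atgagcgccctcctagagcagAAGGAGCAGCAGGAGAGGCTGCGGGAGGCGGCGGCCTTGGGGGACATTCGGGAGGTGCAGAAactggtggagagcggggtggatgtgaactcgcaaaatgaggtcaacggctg
Bzw1, chr1:58393541-58393601, plus strand: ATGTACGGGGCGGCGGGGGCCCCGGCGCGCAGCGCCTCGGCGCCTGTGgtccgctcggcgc
Kl, chr5:150953035-150953060, plus strand: CCGATCGTCGTGGCGCCGTCGGGTGc
Abl2, chr1:156559049-156559166, plus strand: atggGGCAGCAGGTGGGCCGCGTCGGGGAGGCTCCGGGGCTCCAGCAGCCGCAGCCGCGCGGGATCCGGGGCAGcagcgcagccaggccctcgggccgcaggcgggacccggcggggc
Celsr3, chr9:108832147-108832175, plus strand: ctccACGCTCTTCCGACCCATCCAGCCCa
The pieces from Ankrd40, Bzw1 and Abl2 begin at the start codon. Base composition differed widely among the sites. The Bzw1 piece was 83.6% G or C, the Jmjd1c piece 80.3% and the second Plin4 piece 54.8%.

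Few coding clusters stood above input. Over the 8 libraries 1240 coding clusters (0.578%) in 385 genes were above input, 222 (0.104%) in 119 genes were strongly enriched, and 115943 (54.1%) had a fold below input. Strong enrichment was called for 2.7% of all clusters. In the glucagon libraries the share of coding clusters above input was 0.780% and 0.760% in the upper band and 0.893% and 0.314% in the lower band (replicates 1 and 2), against 7.47%, 9.11%, 5.73% and 3.47% of all clusters of the same libraries. In the control libraries it was 0.373% and 0.518% in the upper band and 0.521% and 0.822% in the lower band, against 5.18%, 5.97%, 5.43% and 6.23% of all clusters. Each library was thus lower in coding sequence. Above-input calls averaged 0.623% ± 0.219 of coding clusters and 7.38% ± 1.94 of other clusters (SD, n = 8 libraries). The difference was -6.76 percentage points and lower in 8 of 8 libraries (exact sign-flip test over libraries, two-sided, p = 0.00781, the smallest it can give; adjusted p = 0.0100 over 9 such tests). Strong calls averaged 0.124% of coding and 3.61% of other clusters, with the same p and direction.

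**Figure D1:**
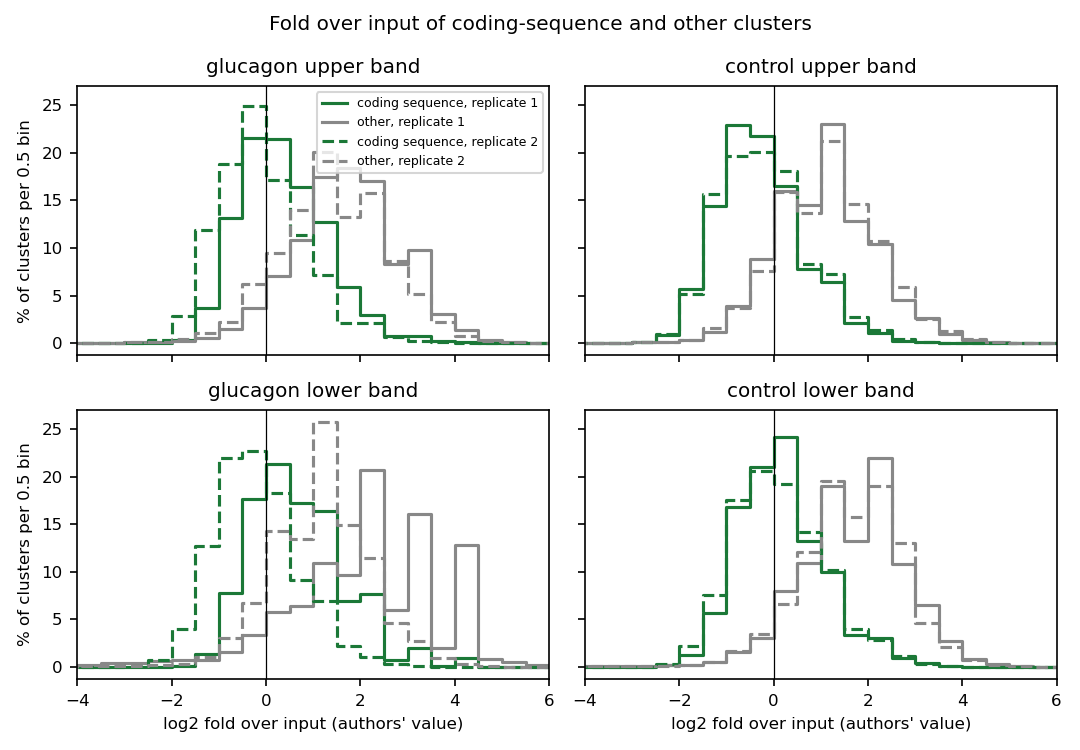
Distribution of the authors' log2 fold over input for coding (green) and other (grey) clusters, in % of clusters per 0.5-wide bin, with solid lines for replicate 1 and dashed lines for replicate 2. Coding clusters centre near 0, with medians between -0.35 and 0.57, and other clusters to the right of them, with medians between 1.23 and 2.47.

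The libraries differed in size. Glucagon lower band replicate 1 had 26279 clusters, 9520 of them coding, and the other libraries 97629 to 260814 clusters. Exact 95% intervals (Clopper-Pearson, counting error of clusters only) of the coding share above input were 0.714% to 1.103% in that library and 0.262% to 0.374% in its replicate, so the replicates differed by more than counting error. Read depth per library is unknown. Hepatocyte markers (Alb, Apob, Ttr, Serpina1a, Cps1, Tat) had coding clusters for 6 of 6 genes, 205 to 340 per library. All 4 markers each of Kupffer, endothelial and stellate cells had 0 coding clusters, and of 4 cholangiocyte markers only Sox9 had any.

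No treatment or band difference passed the adjusted tests, in a design whose smallest p is 0.0556, while the coding share of clusters was lower in the upper band within both treatments. Coding sequence held 23.0% ± 9.45 of clusters in the glucagon libraries and 15.4% ± 5.26 in the control libraries (SD, n = 4 each), a difference of 7.54 points (exact permutation within bands, two-sided, p = 0.111; adjusted p = 0.333 over 6 tests). It held 14.1% ± 4.35 in the upper band and 24.3% ± 8.18 in the lower band (SD, n = 4 each). That difference was -10.2 points, with every upper-band library below its lower-band counterparts of the same treatment (exact permutation within treatments, p = 0.0556, the smallest possible; adjusted p = 0.333). The share above input averaged 0.687% ± 0.255 in glucagon libraries and 0.559% ± 0.189 in control libraries (SD, n = 4 each), a difference of 0.128 points (exact permutation p = 0.444). That difference was 0.32 points within the upper band and -0.07 points within the lower band. The share above input averaged 0.608% ± 0.197 in the upper band and 0.638% ± 0.269 in the lower band (exact permutation p = 0.833, n = 4 each). Clusters below input made up 46.7% ± 16.8 of coding clusters in glucagon and 55.2% ± 10.1 in control libraries (exact permutation p = 0.389, n = 4 each), and 56.3% ± 11.99 in the upper and 45.6% ± 14.5 in the lower band (exact permutation p = 0.389, n = 4 each). These differences depended on glucagon lower band replicate 1. Without it the coding share differed by 3.85 points between treatments and by -6.49 points between bands. The share above input then differed by -0.0164 points between treatments and 0.115 points between bands, and the share below input by 0.366 and 1.89 points.

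The first coding exon, which holds the start codon, was the position where coding clusters most often stood above input. There 2.57% ± 0.920 of clusters were above input, against 0.365% ± 0.188 in later coding exons (SD, n = 8 libraries). The difference was 2.21 ± 0.902 points and positive in 8 of 8 libraries (exact sign-flip p = 0.00781; adjusted p = 0.0100). By ordinal, the share was 0.807% in coding exon 2, 0.318% in exon 3 and 0.192% to 0.340% in exons 4 and beyond. The share below input was 35.8% in the first coding exon and 55.6% in exons 8 and later. Between treatments the contrast differed by -0.125 points (glucagon minus control, exact permutation p = 0.833). Between bands it differed by 0.867 points (upper minus lower, exact permutation p = 0.278), with opposite signs within the treatments. In the glucagon libraries the contrast was 3.26 ± 0.183 points in the upper and 1.03 ± 0.140 points in the lower band, and in the control libraries 2.03 ± 0.392 points in the upper and 2.52 ± 0.520 points in the lower band (SD, n = 2 each). The band difference was 2.22 points in glucagon and -0.49 points in control, and these differed with an exact permutation p of 0.111, a test added after seeing the data.

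**Figure D2:**
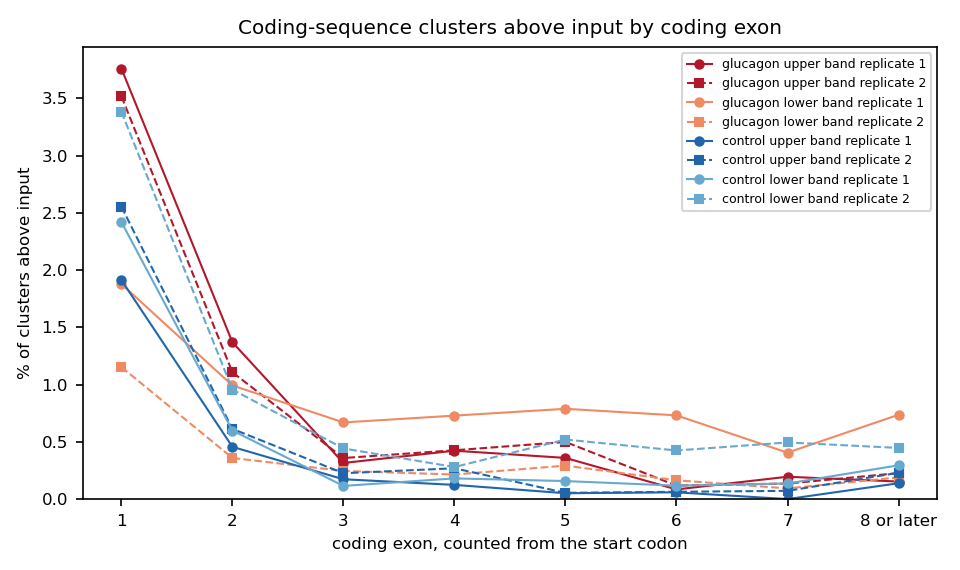
Share of coding clusters above input (%) by coding exon counted from the start codon, 1 line per library, red for glucagon and blue for control, dark for upper and light for lower band. All 8 lines are highest at the first coding exon, between 1.15% and 3.76%.

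Features of the first coding exon moved with this share. Contained clusters above input had a mean G+C content of 62.7% ± 3.37, against 52.3% ± 0.789 for the rest, and 6.72 against 3.11 CpG dinucleotides per 100 nt (SD over 8 libraries). Clusters above input were also longer, 86.5 nt against 48.8 nt. These 3 differences had the same direction in 8 of 8 libraries and also within the first coding exons and within later ones (9 exact sign-flip tests, chosen after seeing the data, each p = 0.00781). The contrast of first against later coding exons was 2.75 points among contained clusters of at least 60% G+C and 3.87 points among clusters of at least 60 nt, again positive in 8 of 8 libraries (exact sign-flip p = 0.00781 each, chosen after seeing the data). A strongly enriched cluster outside coding sequence lay within 500 nt of 21.2% of above-input clusters in the first coding exon, against 2.20% of the rest there, and in later exons the shares were 6.32% and 0.143%. First coding exons whose start codon lay in transcript exon 1 had 3.21% of clusters above input, and those with the start codon in a later exon 1.39% (7 of 8 libraries, exact sign-flip p = 0.0156). The part of these features in the result was not tested further.

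Length and isoform structure also went with the calls. Exons of at least 400 nt had 1.65% ± 0.457 of clusters above input and shorter exons 0.434% ± 0.199, a difference of 1.22 points (8 of 8 libraries, exact sign-flip p = 0.00781; adjusted p = 0.0100). Among internal exons the difference was 0.945 points with Plin4 and 0.529 points without it. Alternative coding sequence, which another protein-coding isoform of the gene spans without including it as exon, had 1.41% ± 0.436 above input, against 0.551% ± 0.224 of constitutive sequence (8 of 8 libraries, exact sign-flip p = 0.00781; adjusted p = 0.0100). The share was 0.245% within 50 nt of a 5′ splice site, against 0.764% in the rest of the exons (exact sign-flip p = 0.00781, lower in 8 of 8 libraries). It was 0.188% within 50 nt of a 3′ splice site, against 0.803% (exact sign-flip p = 0.00781, lower in 8 of 8 libraries). Short exons lie mostly within these windows. In exons of at least 400 nt the 3′ splice site difference was -1.67 points (8 of 8 lower, exact sign-flip p = 0.00781) and the 5′ splice site difference -0.704 points (7 of 8 lower, exact sign-flip p = 0.0781). In both 3′ splice site contrasts the rest included transcript exon 1, which has no 3′ splice site. Over all exons that rest held 796 above-input clusters, and first coding exons held 471 that lay wholly inside an exon. How far these contrasts repeat the first-exon difference was not tested.

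The last coding exon had 0.987% ± 0.459 of clusters above input, against 0.590% ± 0.223 in earlier ones (7 of 8 libraries, exact sign-flip p = 0.0469; adjusted p = 0.0469). Clusters that reached into an intron had 0.699% above input, against 0.597% of clusters wholly inside an exon (7 of 8 libraries, exact sign-flip p = 0.0234; adjusted p = 0.0264). Both differences depended on the settings. The last-exon call was lost when any of 7 of the 8 libraries was left out, with adjusted p from 0.0781 to 0.0938. The edge-crossing difference was 0.501 points when a crossing had to reach at least 5 nt past the exon edge (exact sign-flip p = 0.00781; adjusted p = 0.00879), and turned to -0.0713 points when a log2 fold of at least 2 was required and to -0.0637 points at 3.

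**Figure D3:**
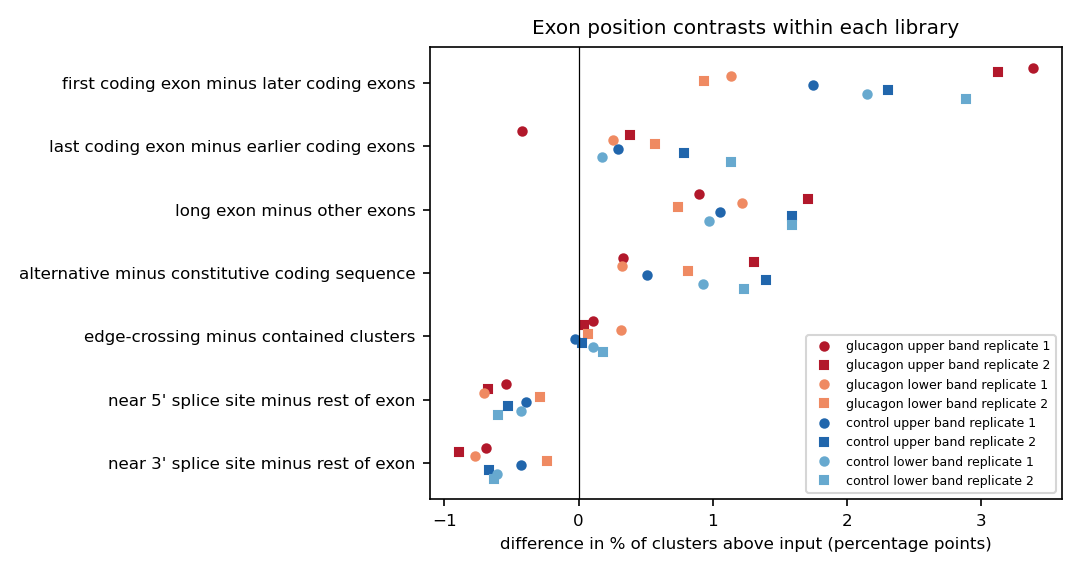
Difference within each library in the share of clusters above input (percentage points) for 7 contrasts of exon position, 1 point per library, red for glucagon and blue for control, circles for replicate 1 and squares for replicate 2. The first coding exon contrast is positive in 8 of 8 libraries and both splice-site contrasts are negative in 8 of 8.

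Clusters of the 8 libraries merged into 78411 coding sites, of which 142 were strongly enriched in some library, 28 in 2 or more, 18 in 3 or more and 8 in 4 or more. The 28 recurrent sites lay in 22 genes, 16 in the first coding exon, 9 in internal exons and 3 in the last, and 20 in exons of at least 400 nt. Of all coding clusters in transcripts with several coding exons, a mean of 11.5% per library lay in the first and 7.96% in the last. Exons of at least 400 nt held 32964 of all 214384 coding clusters. At 7 of the 28 sites, in Jmjd1c, Bzw1, Ptma, Plec, Arid1a and Akap1, another protein-coding isoform spans the position without including it as exon. Such alternative sequence held 17837 of the 214384 coding clusters. Of the 114 sites strongly enriched in a single library, 99 had a cluster in another library and 41 were above input there, and glucagon lower band replicate 1 and control lower band replicate 2 supplied 24 and 33 of them.

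Plin4, which encodes perilipin 4, a coat protein of lipid droplets with long tandem repeats, held 5 of the 28 sites and the largest number of strongly enriched clusters of any gene. At its leading site in coding exon 4, centred 973 nt from the start codon, the highest log2 fold was 3.44 and 4.18 in the glucagon upper band (replicates 1 and 2) and 3.47 and 3.19 in the glucagon lower band. In control it was 3.43 and 3.53 in the upper band and 3.28 and 3.61 in the lower band. The 3.53 of upper band replicate 2 missed the p threshold, and the cluster above input there had 2.43. Lower band replicate 2 had no cluster there past the p threshold. The values at this site overlapped between treatments. The site in coding exon 5 centred at 2127 nt had 3.60, 4.05 and 4.75 in glucagon upper band replicates 1 and 2 and lower band replicate 2, with no cluster in the remaining glucagon library. In control the same site had 2.03, 2.05, 2.82 and 2.93. Of these 4 control values only 2.82, in lower band replicate 1, came from a cluster above input.

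Counted over the gene, Plin4 had 7 and 15 above-input clusters in the glucagon upper band and 1 and 9 in the glucagon lower band, of 8, 17, 2 and 13 coding clusters. In control it had 1 and 2 in the upper band and 3 and 0 in the lower band, of 9, 9, 7 and 6 coding clusters. The counts overlapped through the 1 above-input cluster of glucagon lower band replicate 1, the smallest library, and whether its size had a part was not tested. The median log2 fold over the gene's coding clusters was 3.19, 3.44, 3.63 and 3.16 in the glucagon libraries and 2.72, 2.53, 2.82 and 2.77 in the control libraries. These medians include clusters that missed the p threshold, and the same comparison was not made for other genes. In each control upper band library the median was a fold shared by more than 1 cluster, with the same p, short of the threshold. The 3.63 of glucagon lower band replicate 1 came from only 2 clusters. Whether low read counts set these folds, and so the gap between the treatments, was not tested. Medians over all coding clusters also differed between libraries, from -0.35 to 0.57. Plin4 was noticed for its higher glucagon values, so they are given as a description with no test. Coding exons 4 and 5 each resembled themselves shifted by 297 nt, with 77.1% and 63.4% identical bases, against a median near 25.4% over other shifts. How reads matching several repeats were placed is not given in the sources used here, so which repeat a cluster belongs to is uncertain.

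**Figure D4:**
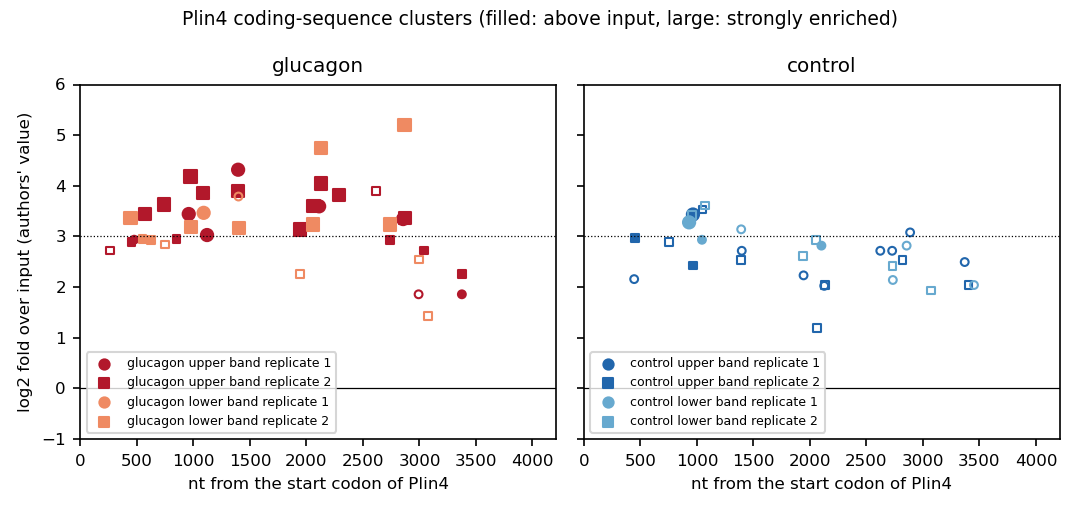
Log2 fold over input (authors' value) of each Plin4 coding cluster against its distance in nt from the start codon, in the 4 glucagon (left) and 4 control libraries (right), with filled symbols above input and large symbols strongly enriched. The glucagon panel holds 23 strongly enriched clusters of 40 and the control panel 2 of 31, where 0.104% of all coding clusters were strongly enriched. The clusters are pooled over libraries and are not replicates of a treatment.

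Rbm14 encodes an RNA-binding coactivator found in paraspeckles, and its site lay in coding exon 3, the last. In the glucagon libraries its log2 fold was 2.27 and 3.15 in the upper band and 2.06 in lower band replicate 2, with no cluster in lower band replicate 1. In control it was 3.76 and 3.84 in the upper band and 3.46 and 3.73 in the lower band. With no value in 1 glucagon library, and the site picked for its recurrence, the treatments were not compared here. Over the gene, 15 above-input clusters lay in coding exon 2, in 6 libraries, and 11 in coding exon 3, in 7 libraries.

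In the first coding exon the sites strongly enriched in 4 libraries were those of Jmjd1c, a JmjC-domain protein of the histone demethylase family, Ankrd40, an ankyrin repeat protein, Necab2, a calcium-binding protein, Bzw1, a regulator of translation initiation, Rnf169, a ubiquitin ligase family member, and Kl, the gene of klotho, a co-receptor for a phosphate-regulating hormone. Ankrd40 had 2.74 and 2.79 in the glucagon upper band and 4.58 and 2.28 in the glucagon lower band, all above input. In control it had 3.41 and 4.02 in the upper band and 3.74 in lower band replicate 2, with no cluster in lower band replicate 1. Bzw1 had 3.44 and 3.31 in the glucagon upper band and no cluster in the glucagon lower band. In control it had 3.03 and 4.31 in the upper band and 3.78 in lower band replicate 2, where it missed the p threshold. Its above-input calls were thus in the upper band of both treatments.

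Jmjd1c had 4.70 in glucagon lower band replicate 2 and no cluster in the other glucagon libraries, against 2.82, 3.53, 3.32 and 4.47 in the control libraries (upper band, then lower band). Kl had 2.18, 3.36, 3.66 and 2.54 in the glucagon libraries and 3.03, 2.05, 3.14 and 1.55 in control. Its groups overlapped, and the values 2.18, 2.05 and 1.55 missed the p threshold. Abl2, a tyrosine kinase, had 4.03, 2.89 and 4.47 in glucagon libraries with a cluster and 2.46, 3.53, 5.28 and 2.99 in control, also overlapping, and the 4.47 of lower band replicate 1 missed the p threshold. Celsr3, a cadherin-family receptor, had 5.03 in the upper and 5.64 in the lower band of glucagon replicate 1, with 5.64 the highest fold at a recurrent site, and no cluster in the remaining libraries. Similarity of its sequence to a library adapter was not tested. Some folds were tied between genes within a library, with the same p. Jmjd1c and a Plec site both had 4.70 in glucagon lower band replicate 2. Abl2 and an Rnf169 site both had 5.28 in control lower band replicate 1. Read counts behind these values were not analysed, so how finely the folds separate genes or treatments is not known.

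**Figure D5:**
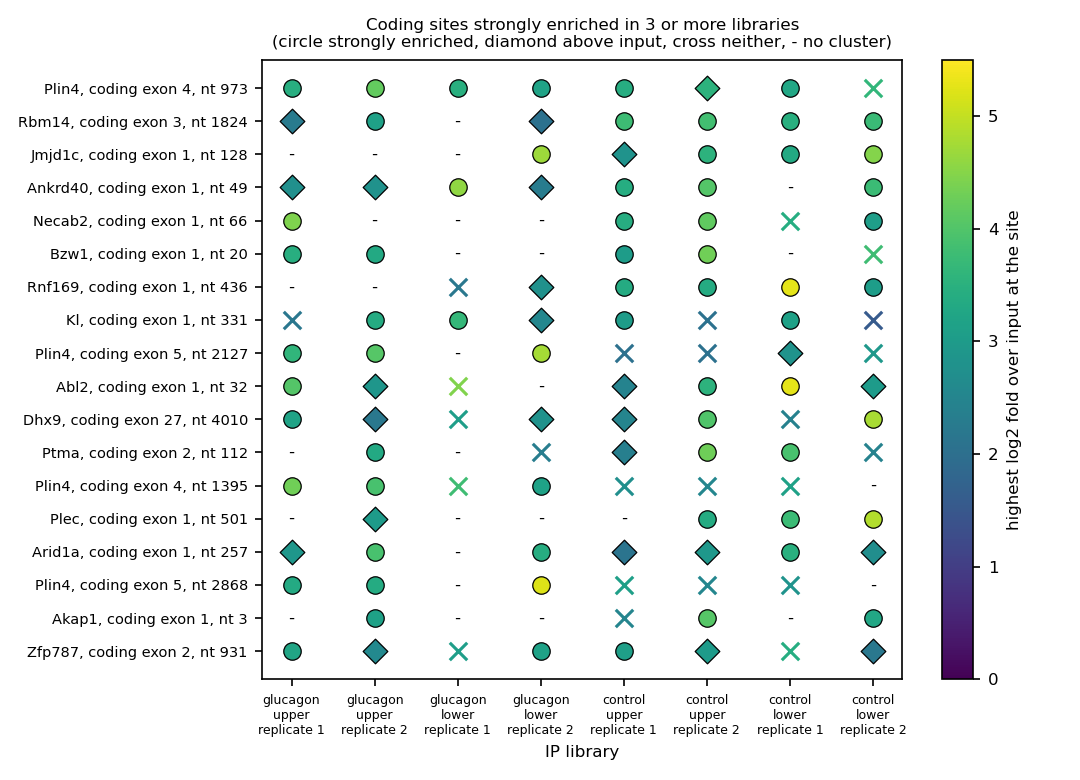
Highest log2 fold over input (colour) at the 18 coding sites strongly enriched in 3 or more libraries, with sites as rows in order of recurrence and IP libraries as columns, glucagon left of control. Circles are strongly enriched, diamonds above input, crosses neither and dashes libraries without a cluster, and the Plin4 sites below the top row have circles in glucagon columns only.

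In the authors' deposited table of reproducible peaks, 43 of 8478 peaks (0.507%) were coding, in 25 genes. They were 13 of 2167 in the glucagon upper band, 2 of 413 in the glucagon lower band, 13 of 3692 in the control upper band and 15 of 2206 in the control lower band. Of these 43 coding peaks of the authors' deposited table, 28 lay in the first coding exon and 6 in the last, and 6 were Plin4 peaks, all in the glucagon upper band list. Among all coding clusters of the IP libraries, a mean of 11.5% lay in the first coding exon and 7.96% in the last. The highest coding folds in the authors' deposited table were 4.11 for Plin4 in the glucagon upper band, 3.49 for Ankrd40 in the glucagon lower band, 3.90 for Rbm14 in the control upper band and 4.50 for Rnf169 in the control lower band. The list sizes differ and set no order between groups. Other genes taken from the authors' deposited table were Epha2, an ephrin receptor, at 3.22 in the glucagon upper band, and Pdpk1, a kinase of insulin signalling, at 3.53 in the control upper band.

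A wider set of genes stood just above input. Above-input coding clusters occurred in 4 or more libraries for 77 genes and in all 8 for genes that include Saa2, Hsp90b1, Canx, Zmpste24 and Cd63. These were singled out after their values were seen. Saa2, an acute-phase protein of liver, had 30 of 49 clusters above input over all 3 coding exons, with a highest log2 fold of 1.93, and it shares near-identical sequence with Saa1, so its counts are uncertain. Canx and Hsp90b1, chaperones of the endoplasmic reticulum, had 20 of 216 and 21 of 240 clusters above input, 16 of the Canx clusters in its first coding exon and 6 and 11 of the Hsp90b1 clusters in its coding exons 1 and 2. Zmpste24, the protease that matures lamin A, had 13 of its 15 in the first coding exon.

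Genes whose counts did not overlap between groups were few. Among the 385 genes with an above-input coding cluster, 0 had more such clusters in every glucagon than in every control library, where the same was true of 0.583% of 3430 genes for their clusters outside coding sequence. The opposite held for Taf15, an RNA-binding protein, Tbc1d2b and Usp32, a deubiquitinase, or 0.779% of 385, against 2.86% outside coding sequence. Taf15 had 0 above-input clusters in each glucagon library and 1, 2, 1 and 2 in the control libraries. Upper band counts exceeded lower band counts for Snx14, a sorting nexin, and Bzw1, or 0.519%, against 3.15% outside coding sequence. The lower band exceeded the upper for Itgb1, integrin β1, or 0.26%, against 0% outside coding sequence. These shares are near or below the background shares apart from the last, which is 1 gene. A gene can be counted here only if it was above input in at least 4 libraries, which held for 77 of the 385. How many of the 3430 met this was not counted, so the shares are not like for like.

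Against these stood the bulk. Of 2893 genes with at least 20 coding clusters, 2609 had none above input. The genes with most coding clusters were Apob with 868, Huwe1 with 863, Fn1 with 822, Dst with 739 and Alb with 694. Apob, the protein of very low density lipoprotein, had 0 of 868 clusters above input and a median log2 fold of -1.26. Alb, serum albumin, had 0 of 694 and a median of -1.03, and its per-library medians ran from -1.09 to -0.49 in the glucagon libraries and from -1.28 to -0.82 in the control libraries. Fn1, fibronectin, had 3 of 822 and a median of -1.16. Huwe1, a large ubiquitin ligase, had 0 of 863 and a median of -0.92, and Dst, a cytoskeletal linker, 0 of 739 and a median of -0.26.

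Gene lists differed in the same way, set against 0.578% of all coding clusters above input and a median log2 fold of -0.09. Among splicing factors and hnRNPs 143 of 3012 clusters (4.75%) were above input, in 20 of 72 genes with a coding cluster, and the median log2 fold was 0.26. Hnrnpa2b1 led with 33 of 95, all in coding exons 7 to 11. Of these, 4 of 5, 3 of 5, 4 of 10, 5 of 10 and 3 of 3, by exon, reached into an intron. Among all 1240 above-input coding clusters 351 did so. Hnrnpa2b1 had 0 and 2 above input in the glucagon upper band and 2 and 11 in the glucagon lower band, against 1 and 1 in the control upper band and 6 and 10 in the control lower band. Snrnp70, the 70K protein of the U1 particle, had 15 of 34, all in its last coding exon, which is alternative and 826 nt long. The secreted plasma proteins had 23 of 10021 (0.23%) above input and a median of -0.92, with 91.9% of clusters below input.

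The metabolic lists were near or below the share of all genes. Fatty acid oxidation and ketogenesis had 0 of 933 clusters above input, gluconeogenesis and glycolysis 3 of 843, urea cycle and amino acid catabolism 3 of 1709, lipid and cholesterol synthesis 1 of 1585, cytochrome P450 and bile acids 6 of 1469 and oxidative phosphorylation 4 of 1794. The 3 gluconeogenesis clusters were all in coding exon 2 of Pck1, the enzyme that commits to glucose production. Pck1 had 5, 6, 4 and 13 coding clusters in the glucagon libraries and 1 in each control library. Its above-input clusters were in glucagon upper band replicate 1, glucagon lower band replicate 1 and control lower band replicate 2. Ribosomal proteins had 4 of 969 and translation factors 8 of 2104. Glucagon and cAMP response genes had 13 of 684 (1.90%) above input, 6 of them in the last coding exon of Per1, a clock gene induced by cAMP, in 6 libraries. Nuclear receptors and coregulators had 7 of 692 (1.01%), 4 of them in the first coding exon of Hnf4a, the hepatocyte nuclear factor.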

How the data were processed

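Single-end eCLIP (seCLIP, per the labels' protocols) of PGC-1α was read out in 8 IP libraries from mouse primary hepatocytes, grouped by treatment and band from the sample names. The submitters' processing notes name cutadapt, STAR and the mm10 build, without versions. Not given in the sources used here are the peak caller, the handling of reads with several matches and how the reproducible lists were made. The deposited files have no header. From their values, the first deposited column was read as −log10 of a p-value against input, and the second deposited column as a log2 fold over input. A single list of reproducible peaks per group was also used. No input reads or read counts were analysed, so intervals cover the counting error of clusters only.

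Midpoints were placed by strand in GENCODE M21. Clusters sharing 1 base on a strand were merged into sites, and bedtools 2.31.1 gave the same 78411 sites. Shares were compared by exact sign flips within libraries (256 assignments) or exact permutation within strata (36 assignments), with Benjamini-Hochberg adjustment over 9 and 6 tests, and the smallest p they can give is 0.00781 and 0.0556. Bands of a replicate counted as separate units. Python 3.11.15, numpy 2.4.6, pandas 2.3.3 and scipy 1.17.1 were used, and coordinates are 1-based.

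The members, the 12 gene lists and the tests were chosen with earlier results of these data known. The rule for named genes took the 12 genes with the most recurrent strong sites, the 10 with most coding clusters, up to 5 per direction whose counts did not overlap between groups, the 5 highest coding folds per reproducible list and up to 4 members per gene list. Zfp787, Akap1, Celsr3, Saa2, Hsp90b1, Canx, Zmpste24 and Cd63 fell outside it and were chosen after their values were seen. Alternatives covered the fold and p thresholds, cluster length, the reach of an edge crossing, the overlap for merging, each library left out, a replicate block, averaged bands, the genes with most clusters and Plin4. Some genes that the rule takes are left out of the text.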

Additional observations from a re-analysis of the deposited data

How the results depend on the processing

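Of the values recomputed under alternative settings, 207 kept their direction and their side of the threshold, 27 kept the direction but lost the call, 8 reversed and 1 count moved. The cause of these changes was not tested unless named. The 207 include treatment and band differences, which no setting could call, because the smallest p of their exact permutation test is 0.0556. For them only the direction could change. With the 2 bands of each replicate averaged, only 4 units remain and the smallest possible p is 0.125, so the 9 within-library contrasts lost their calls with values as reported (-6.76, -3.48, 2.21, 0.397, 0.102, 0.855, 1.22, -0.52 and -0.615 points, exact p = 0.125 except 0.25 for the last coding exon). The last coding exon contrast ranged from 0.292 to 0.515 points as libraries were left out, and was not called at 0.412 with clusters of at least 20 nt, 0.175 at a −log10 p of at least 5 and 0.387 without the 20 genes with most coding clusters. The edge-crossing contrast ranged from 0.071 to 0.12 points with libraries left out, with the call lost in 5 of the 8 omissions (exact sign-flip test, adjusted p = 0.0527), was 0.501 and called when crossings had to reach at least 5 nt, was not called at 0.0661 with clusters of at least 20 nt and 0.0188 at a −log10 p of at least 5, and reversed to -0.0713 and -0.0637 at a log2 fold of at least 2 and 3. The alternative-sequence contrast was not called at 0.157 at a log2 fold of at least 3. Among differences that no test called, with libraries left out, the share above input ranged from -0.0164 to 0.273 points between treatments and from -0.175 to 0.115 between bands, and the share below input from -17.3 to 0.366 between treatments. The reversed values -0.0164, 0.115 and 0.366 came without glucagon lower band replicate 1, and the reversed band difference in the share above input was 0.00643 and 0.0451 without control upper band replicate 1 and control lower band replicate 2, and 0.0403 at a −log10 p of at least 5. Recurrent strong sites numbered 7, against 28, at a log2 fold of at least 4. With a replicate block the 6 treatment and band differences kept their values (7.54 and -10.2 points for the coding share, exact permutation p = 0.125 each). None could be called, since 0.125 is then the smallest possible p. Same-numbered libraries share only a number in the labels, and per-gene deviations correlated at 0.131 and 0.126 between treatments in the upper and lower band, and at 0.269 and 0.0071 between bands of glucagon and control (805 genes), which bears on counting bands as separate units. Read depth is unknown, and the smallest library had 85 coding clusters above input.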
